A study of Mus musculus with 6 samples.

Results

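Adrenomedullin is a secreted vasodilator and vessel-growth peptide, and the genes described here are its gene Adm, the receptor gene Calcrl, the receptor partner genes Ramp1, Ramp2 and Ramp3, and the scavenger receptor gene Ackr3. They were taken by name from the table of counts per gene, through versioned Ensembl identifiers and their GENCODE M21 symbols, and 5 of the 6 were found among its 17068 genes. Ramp1 (chromosome 1, 91179822 to 91225196) has no row in that table, so no value can be given for it. The authors had removed genes with low counts, but whether Ramp1 is missing for that reason was not tested. Sox2 and Neurod1, from the cortical progenitor and neuron genes listed below, have no row either. The group of genes was chosen by what its proteins do and selected on the measured difference of Adm between the groups in these data, which was already known.

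RNA-Seq libraries had been made from lateral cortex of 6 female c57/bl6 samples at E12.5. Controls 1, 2 and 4 were Cre-negative and Foxp1 fl/+, control 3 was Cre-negative and Foxp1 fl/fl, and the remaining 2 libraries were labelled Foxp1 fl/fl;Emx1Cre, termed Foxp1cKO. Emx1Cre acts in progenitors of the dorsal telencephalon and their descendants, whereas blood vessels come from another lineage. The study asked how early loss of Foxp1 changes the developing cortex and its vessels. Litters are not given in the labels. The study's methods describe the samples as 4 control and 2 Foxp1cKO females, so libraries were taken as separate animals.

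Libraries held between 50076008 and 78346979 counts. Foxp1, the targeted gene, stood at 59.7, 60.8, 71.2 and 79.1 CPM (the usual per-library scaling of a count, with library sizes adjusted by edgeR's TMM factors) in controls 1 to 4 and at 83.2 and 76.8 CPM in the libraries labelled Foxp1cKO 1 and 2. The count over the whole gene was thus not lower there. A whole-gene count also holds reads from outside the floxed part and so does not check the deletion, and groups are called by their labels throughout. Of the 12 listed genes of cortical progenitors and neurons, 10 were in the table, all but Sox2 and Neurod1. None of the 10 was at 0 in any library. Their sums were 1904 to 2413 CPM in the controls and 2115 to 2161 CPM in the libraries labelled Foxp1cKO. Differences were tested over all genes by quasi-likelihood in edgeR with group as the only term, and the threshold was a Benjamini-Hochberg adjusted p of 0.05. For a single value, exact two-sided permutation p-values were doubled one-sided ones. With 4 controls and 2 other libraries these cannot fall below 0.133.

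Adrenomedullin is made as a precursor, cut, and given an amide at its end by the enzyme encoded by Pam. It acts through the class B receptor encoded by Calcrl, which reaches the cell surface only with a RAMP protein. With RAMP2 or RAMP3 the pair is an adrenomedullin receptor, and with RAMP1 it is the receptor of the related peptide CGRP. Signalling runs mainly through the stimulatory G protein and cyclic AMP. The gene Ackr3 encodes an atypical receptor that takes up adrenomedullin and the chemokine encoded by Cxcl12 without G protein signalling. In embryos Adm is a known target of hypoxia-inducible factors, and Calcrl and Ramp2 are known for their expression in endothelium.

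The core of the DNA element that hypoxia-inducible factors bind was searched as ACGTG or GCGTG on both strands of RefSeq promoter windows in build GRCm38.p6, which run from 250 bases before a gene's start to 50 bases after it. Adm and Ramp3 are shown because each window held 2 matches, although only Adm passed the threshold between the groups. Capitals mark the matches, which were GCGTG in all 4 cases, both on the reverse strand in Adm and once on each strand in Ramp3.
Adm, chr7:110627407-110627706, plus strand: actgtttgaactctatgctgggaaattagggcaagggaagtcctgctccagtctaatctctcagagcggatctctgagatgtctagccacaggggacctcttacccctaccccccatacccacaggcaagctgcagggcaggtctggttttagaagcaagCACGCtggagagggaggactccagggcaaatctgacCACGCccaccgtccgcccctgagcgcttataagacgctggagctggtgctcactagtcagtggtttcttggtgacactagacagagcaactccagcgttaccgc
Ramp3, chr11:6658283-6658582, plus strand: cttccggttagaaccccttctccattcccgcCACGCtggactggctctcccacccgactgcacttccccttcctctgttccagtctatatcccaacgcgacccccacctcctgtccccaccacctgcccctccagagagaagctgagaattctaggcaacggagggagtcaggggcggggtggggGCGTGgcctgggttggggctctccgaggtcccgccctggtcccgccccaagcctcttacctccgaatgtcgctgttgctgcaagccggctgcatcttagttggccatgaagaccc

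The first base of the matches in Adm lay 90 and 54 bases before the RefSeq start, and in Ramp3 219 and 65 bases before it. Calcrl and Ackr3 had 1 match each, at 21 bases after and 120 bases before their starts, and Ramp1 had none. Ramp2 had no entry among the windows used. Of 32851 windows of this length, 43.8% held at least 1 match and 20.6% at least 2, where the palindrome CACGTG counts as 2, and these shares are a description of all windows, not of the members.

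Of the 5 members in the table, 1 passed the threshold, against 0.152% of all genes (26 of 17068, each of them higher). This member was Adm, and since its difference was used to choose the genes its values are a description, with nothing read from the count. DESeq2's Wald test also called Adm alone of the 5, against 2.97% of all genes in either direction (1.82% higher and 1.15% lower). Adm (ENSMUSG00000030790.15, chromosome 7, 110627661 to 110629820) had 84, 62, 71 and 83 counts in controls 1 to 4, and 271 and 486 counts in the libraries labelled Foxp1cKO 1 and 2. These are 1.36, 0.998, 0.974 and 1.05 CPM in the controls and 5.38 and 6.41 CPM in the libraries labelled Foxp1cKO. Controls lay within a 1.39-fold range, the other group within a 1.19-fold range, and the groups were far apart. The mean was 1.10 ± 0.177 CPM (SD, n = 4) in the controls and 5.90 ± 0.723 CPM (SD, n = 2) in the libraries labelled Foxp1cKO. The log2 fold change was 2.43 (standard error 0.21), a 5.38-fold rise with a 95% interval of 3.82 to 7.59. In single comparisons of a library labelled Foxp1cKO with a control, the differences in log2 CPM ran from 1.97 to 2.68 over all 8 of them. Counting error alone was 12.7% in the library with the fewest Adm counts. Adm no longer passed the threshold without control 2 (2.39), without the library labelled Foxp1cKO 1 (2.55) or without that labelled Foxp1cKO 2 (2.28). In the last 2 of these fits 1 library stands for its group, which is assumed to vary like the controls, so nothing is read from the lost call there. On the deposited variance-stabilized values, a scale that compresses differences of low counts, the difference was 1.26 with limma. Its antisense neighbour Gm28863 shares 0 exon bases with it.

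**Figure D1:**
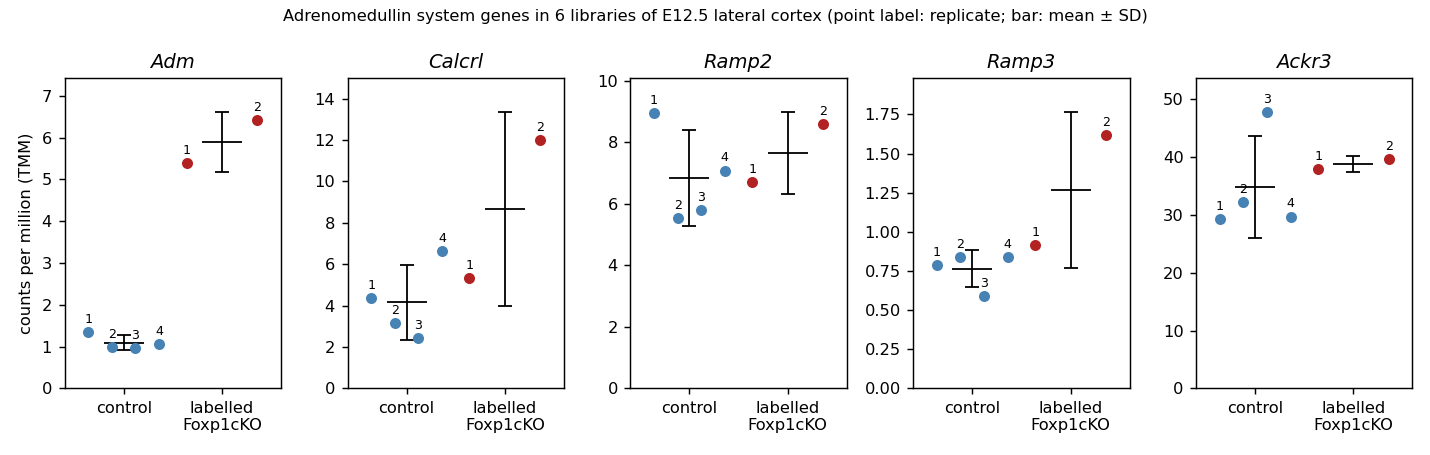
CPM of the 5 members in each library, with controls in blue and libraries labelled Foxp1cKO in red, replicate numbers above the points, and the group mean ± SD as a black bar. Adm lies between 0.974 and 1.36 CPM in the controls and at 5.38 and 6.41 CPM in the others, while the ranges of Calcrl, Ramp2 and Ackr3 overlap and that of Ramp3 begins just above the controls.

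Calcrl, which encodes the receptor itself (ENSMUSG00000059588.13, chromosome 2, 84330626 to 84425411), stood at 4.38, 3.17, 2.44 and 6.63 CPM in controls 1 to 4. In the libraries labelled Foxp1cKO 1 and 2 it stood at 5.35 and 11.996 CPM. The first of these was below control 4, so the groups overlapped, and the second was above every other library. Mean levels were 4.15 ± 1.83 CPM (SD, n = 4) and 8.67 ± 4.70 CPM (SD, n = 2). Its log2 fold change of 1.06 (standard error 0.45, 95% interval 0.0050 to 2.12) did not pass the threshold (edgeR quasi-likelihood, Benjamini-Hochberg adjusted p = 0.382). Without the library labelled Foxp1cKO 2 the change was 0.35, and without the library labelled Foxp1cKO 1 it was 1.53. The counts behind these values, 178 to 910 per library, give a counting error of at most 7.50%, far less than the 2.71-fold range of the controls and the 2.24-fold range of the other group.

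Ramp2 (ENSMUSG00000001240.13, chromosome 11, 101246028 to 101259546) encodes the partner that makes Calcrl an adrenomedullin receptor. Controls 1 to 4 had 8.96, 5.54, 5.79 and 7.09 CPM, and the libraries labelled Foxp1cKO 1 and 2 had 6.72 and 8.61 CPM, both inside the range of the controls. Means were 6.84 ± 1.57 CPM (SD, n = 4) and 7.66 ± 1.34 CPM (SD, n = 2). A log2 fold change of 0.16 (standard error 0.24, 95% interval -0.39 to 0.72) did not pass the threshold (edgeR quasi-likelihood, Benjamini-Hochberg adjusted p = 0.803). Changes beyond 1.65-fold upward or to under 0.761 of the control level lie outside that interval. Ramp2 shares 1103 of its 3301 annotated exon bases (33.4%) with Vps25 on the same strand, and reads on shared bases are assigned to neither gene in the counting mode used, so its level may be understated.

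Ramp3 (ENSMUSG00000041046.7, chromosome 11, 6658521 to 6677475), which encodes the other adrenomedullin partner, was the least counted member. It had 49, 52, 43 and 66 counts in controls 1 to 4 and 46 and 123 counts in the libraries labelled Foxp1cKO 1 and 2. Relative to library size these were 0.791, 0.837, 0.590 and 0.838 CPM in the controls and 0.914 and 1.62 CPM in the others. Both of the latter exceeded all controls, which 11.5% of all genes also showed. The library labelled Foxp1cKO 1 lay above control 4 by less than the counting error of 15.2% in the library with the fewest counts. For Ramp3 the log2 fold change was 0.74 (standard error 0.31, 95% interval 0.01 to 1.46) and did not pass (edgeR quasi-likelihood, Benjamini-Hochberg adjusted p = 0.377). It was 0.24 without the library labelled Foxp1cKO 2 and 1.08 without the library labelled Foxp1cKO 1. A pseudogene on the other strand, Gm11978, shares 101 exon bases with it, and the strand setting of the counting is not given in the sources used here.

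Ackr3, the scavenger receptor gene (ENSMUSG00000044337.5, chromosome 1, 90203980 to 90216751), was the member with the most counts, 1817 to 3486 per library. Controls 1 to 4 had 29.3, 32.2, 47.8 and 29.7 CPM, and the libraries labelled Foxp1cKO 1 and 2 had 37.8 and 39.7 CPM. Both lay above 3 controls and below control 3, the Foxp1 fl/fl control. The log2 fold change was 0.16 (standard error 0.21, 95% interval -0.33 to 0.64; edgeR quasi-likelihood, Benjamini-Hochberg adjusted p = 0.78). It was 0.34 without control 3, still short of the threshold. In control 3 the 9 listed genes of ventral telencephalon and interneurons also had their highest sum, 845 CPM, against 235 to 362 CPM in the other controls and 392 to 529 CPM in the libraries labelled Foxp1cKO. None of the 9 was at 0 in any library, none passed the threshold, and their part in the level of Ackr3 was not tested.

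Of the 4 members besides Adm, Calcrl (0.0492) and Ramp3 (0.0472) had an unadjusted p under 0.05 in edgeR, both in the direction of higher levels. Of all genes 13.0% had one, 6.53% higher and 6.50% lower. Ramp3 was the only one of the 4 whose groups did not overlap, against 24.6% of all genes in either direction.

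**Figure D2:**
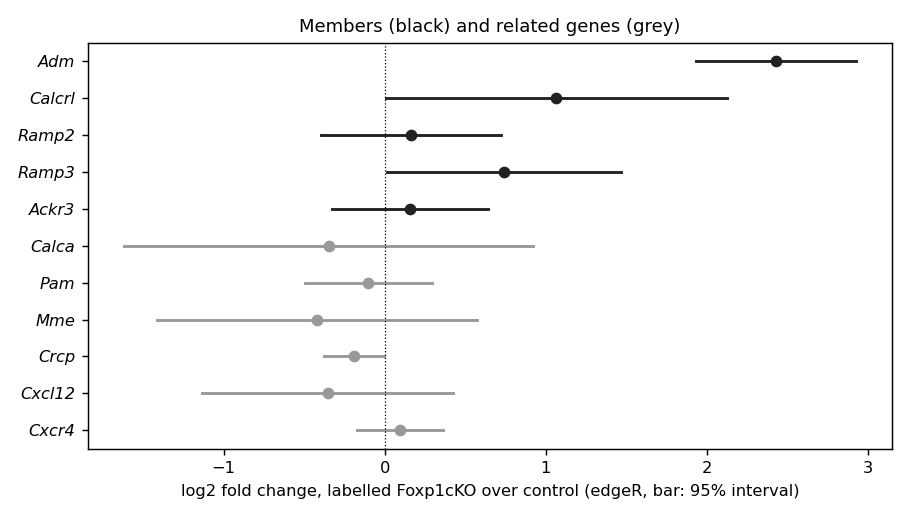
Log2 fold changes (libraries labelled Foxp1cKO over controls) from edgeR with 95% intervals, members in black and related genes of the pathway in grey. Adm stands at 2.43 with an interval of 1.93 to 2.92, and the intervals of Calcrl and Ramp3 begin near 0 while those of Ramp2 and Ackr3 span it.

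Levels of different genes were compared as CPM per kilobase of union exon length. In the controls Ackr3 was highest at 10.4 ± 2.63 (SD, n = 4), above 68.8% of the 17047 genes with a length. Ramp2 followed at 2.07 ± 0.475, then Calcrl at 0.851 ± 0.375, Adm at 0.677 ± 0.109 and Ramp3 at 0.554 ± 0.0856 (SD, n = 4 each). Ackr3 and Ramp2 were first and second in all 4 controls, and Ramp3 was lowest in each library. The ranges of Calcrl and Adm overlapped in the controls, and in control 3 Adm was above Calcrl.

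In both libraries labelled Foxp1cKO the order changed, and Adm stood second, behind Ackr3 and ahead of Ramp2. Adm per kilobase was 3.33 and 3.96 there, against 2.03 and 2.61 for Ramp2 and 1.09 and 2.46 for Calcrl. Its place among all genes, by the percentage with a lower level per kilobase, was 24.4 in controls and 44.8 in the libraries labelled Foxp1cKO. The place of Adm before Ramp2 depends on the length used for Ramp2. With the longest transcript of each gene, Ramp2 stood at 4.54 and 5.82 and Adm at 3.87 and 4.61, so Ramp2 came first.

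**Figure D3:**
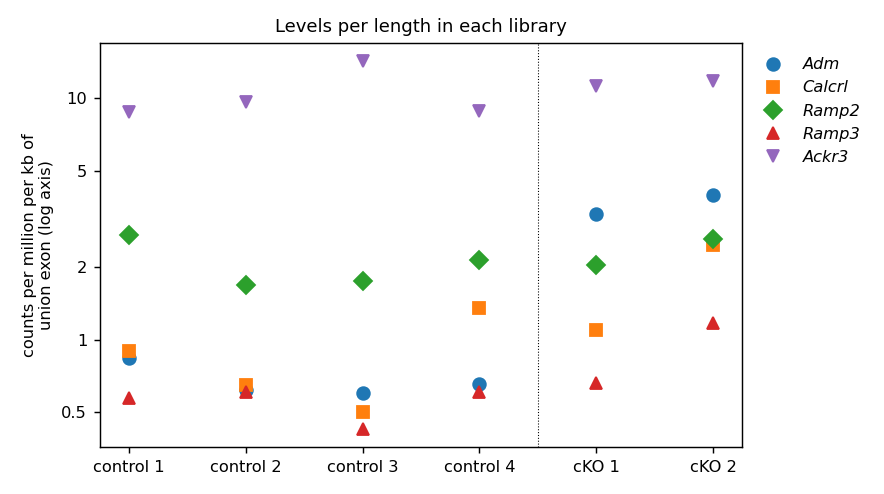
Level of each member in each library as CPM per kilobase of union exon length on a log axis, with controls to the left of the dotted line and libraries labelled Foxp1cKO to its right. Adm moves from 0.602 to 0.838 in the controls to 3.33 and 3.96, while Ackr3 stays on top in all 6 libraries.

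The ratio of scavenger receptor to ligand shows the same values from another side. Per kilobase, Ackr3 exceeded Adm 10.5-, 15.6-, 23.7- and 13.6-fold in controls 1 to 4 and 3.40- and 3.00-fold in the libraries labelled Foxp1cKO 1 and 2. The ratio of Adm to Calcrl was 0.935, 0.949, 1.20 and 0.479 in controls 1 to 4 and 3.04 and 1.61 in the libraries labelled Foxp1cKO. Of the transcripts of the 2 measured RAMP genes, Ramp2 made up 73.4% to 82.6% per kilobase in the controls, and 75.4% and 68.9% in the libraries labelled Foxp1cKO. Ramp2 was thus the more abundant partner gene in all 6 libraries.

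In bulk tissue, fewer cells of a type and less RNA per cell cannot be told apart, so the receptor genes were set beside 20 genes of endothelial identity, such as Pecam1, Cdh5 and Cldn5. All 20 were in the table and none was at 0 in any library. A positive log2 fold change was seen for 15 of them, against 8407 of all 17068 genes, and a negative one for 5. The VEGF receptor gene Flt1 alone passed the threshold, which 0.152% of all genes did. The median log2 fold change of the 20 was 0.16, against -0.0044 for all genes. Their summed level was 346, 236, 221 and 282 CPM in controls 1 to 4 and 312 and 378 CPM in the libraries labelled Foxp1cKO 1 and 2. The sums of the groups overlapped, and their means differed 1.27-fold.

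Ramp2 was read against that sum in each library. As a percentage of the endothelial sum it was 2.59, 2.35, 2.62 and 2.52 in controls 1 to 4 and 2.15 and 2.28 in the libraries labelled Foxp1cKO. Its level varied 1.62-fold among the controls, while these percentages stayed between 2.35 and 2.62. Both libraries labelled Foxp1cKO lay below all controls in this ratio. The exact two-sided permutation p was 0.133, the smallest that doubling the one-sided p allows here, and 0.4 adjusted over 3 receptor genes. Without Flt1 in the sum, an alternative chosen after the data were seen, the values were 2.51 and 2.66 against 2.51 to 2.77, and the groups overlapped.

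Calcrl varied more widely against the endothelial sum than Ramp2, a difference that was not tested. It came to 1.26, 1.34, 1.10 and 2.35% of the sum in controls 1 to 4 and to 1.71 and 3.17% in the libraries labelled Foxp1cKO (exact two-sided permutation p = 0.267, adjusted p = 0.4 over 3 genes). The high values were those of control 4 and of the library labelled Foxp1cKO 2. In the same 2 libraries, and in that labelled Foxp1cKO 1, the sum of the 8 listed red cell genes was high. It was 3429, 4021 and 3760 CPM there, against 1090 to 1436 CPM in controls 1 to 3. The globin gene Hbb-y held most of it, at 2340, 2739 and 2454 CPM. Not each gene followed the sum, and Hbb-bs was highest in control 1, at 109 CPM against 82.6, 76.6 and 70.5 CPM in those libraries. All 8 were in the table, 7 were higher, none passed the threshold and none was at 0 in any library, and the part of blood content in the level of Calcrl was not tested. Ramp3 made up 0.229 to 0.355% of the endothelial sum in the controls and 0.293 and 0.429% in the others (exact two-sided permutation p = 0.4, adjusted p = 0.4 over 3 genes).

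For Adm the same ratio was 0.392, 0.423, 0.440 and 0.374% in controls 1 to 4 and 1.73 and 1.69% in the libraries labelled Foxp1cKO. Adm was chosen for its difference between the groups, so this ratio is a description and the part of endothelial content in it was not tested.

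**Figure D4:**
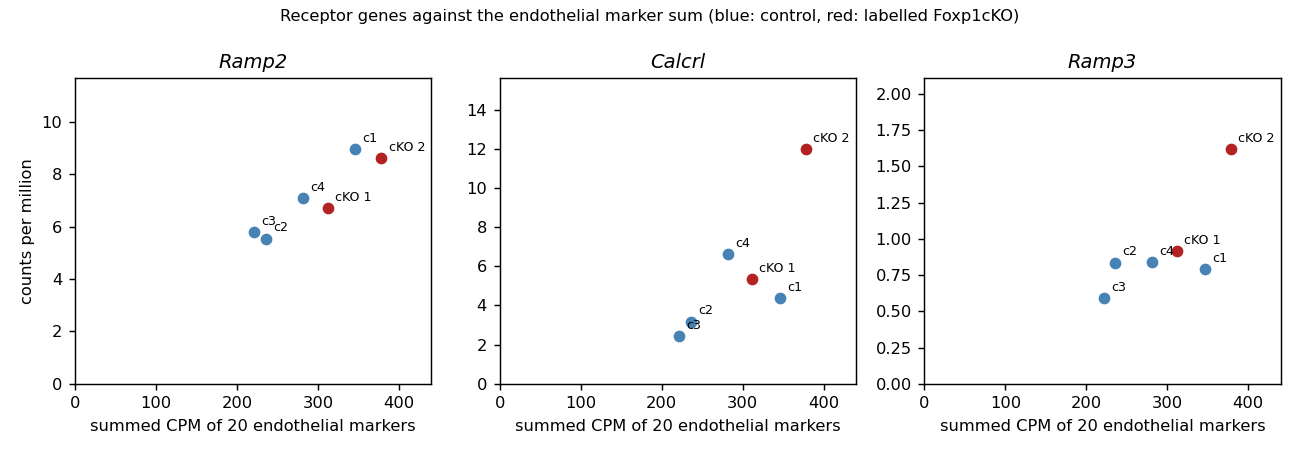
CPM of Ramp2, Calcrl and Ramp3 against the summed CPM of 20 endothelial marker genes in each library, with controls (c1 to c4) in blue and libraries labelled Foxp1cKO (cKO 1 and cKO 2) in red. Ramp2 lies at 2.15 to 2.62% of the sum in all 6 libraries, whereas Calcrl ranges from 1.10 to 3.17%.

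Other cell types that may carry these genes were read in the same way. Of 11 listed tip cell genes, which mark the leading cells of growing vessels, all 11 were higher and 4 passed the threshold (Esm1, Angpt2, Kcne3 and Igfbp3), with sums of 98.6 to 168 CPM in the controls and 226 and 229 CPM in the libraries labelled Foxp1cKO. Of all 17068 genes, 8407 were higher, 0.152% passed the threshold and 11.5% lay above all controls. The cell type lists were chosen with earlier results of these data known. Nothing is therefore read from their counts beside these shares. Of 11 listed mural cell genes, 10 were in the table, 8 were higher and none passed, with sums of 199 to 246 CPM and of 302 and 305 CPM. Of the 4 lymphatic endothelial genes, 1 was higher and none passed, with overlapping sums of 47.3 to 62.7 CPM and of 45.0 and 64.7 CPM. The 11 genes of microglia and macrophages had 7 higher and none past the threshold, with sums of 29.9 to 60.0 CPM and of 50.8 and 54.3 CPM. All 8 Cajal-Retzius genes were higher, none passed, and their sums were 432 to 539 CPM and 559 and 653 CPM. The sums of the tip cell, mural, Cajal-Retzius and red cell genes were above all controls in both libraries labelled Foxp1cKO. Single genes held much of some sums. In the control means Notch3 held 135 of 228 CPM of the mural sum, and Reln 344 of 483 CPM of the Cajal-Retzius sum. None of these sums was tested, and their part in the level of Adm was not tested.

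Each member was also matched to the genes most like it, by the smallest root-mean-square difference in log2 CPM over the 6 libraries after centring each gene on its mean, among genes averaging at least 50 counts. For Adm these were Bnip3, a mitophagy receptor gene, at 0.214, then AI661453 at 0.242, the potassium channel subunit gene Kcne3 at 0.252, the pseudogene Rps3a2 at 0.271 and Pdk1, which encodes a kinase that restrains pyruvate dehydrogenase, at 0.275. The median over all genes compared was 1.16. Adm was chosen for its step between the groups, which makes up most of its profile. Genes with a step of like size therefore lie near it, and the log2 fold changes of these 5 were 2.16 to 2.75. Their likeness to Adm is a description, and shared regulation was not tested. Bnip3, the nearest, had 20.2 to 29.9 CPM in the controls and 124 and 151 CPM in the libraries labelled Foxp1cKO, and Kcne3, a tip cell gene of the list above, had 0.917 to 1.21 CPM and 7.59 and 6.62 CPM.

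For Ramp2 the nearest genes were Anxa3 at 0.0611, Mcam at 0.0676, Cgnl1 at 0.0715, Ahr at 0.0721 and Rin3 at 0.0750, against a median of 0.306. Mcam encodes a cell adhesion protein of vessels. Like Ramp2 these genes were high in control 1 and in the library labelled Foxp1cKO 2, which follows from how they were picked. The genes nearest to Calcrl were A230050P20Rik at 0.223, Gpr146 at 0.229, the arterial connexin gene Gja5 at 0.249, Papln at 0.258 and Ak4 at 0.259, against a median of 0.755. None of the 5 nearest genes was shared by Ramp2 and Calcrl, but nothing is read from this, since lists of 5 among 14359 genes seldom share one.

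**Figure D5:**
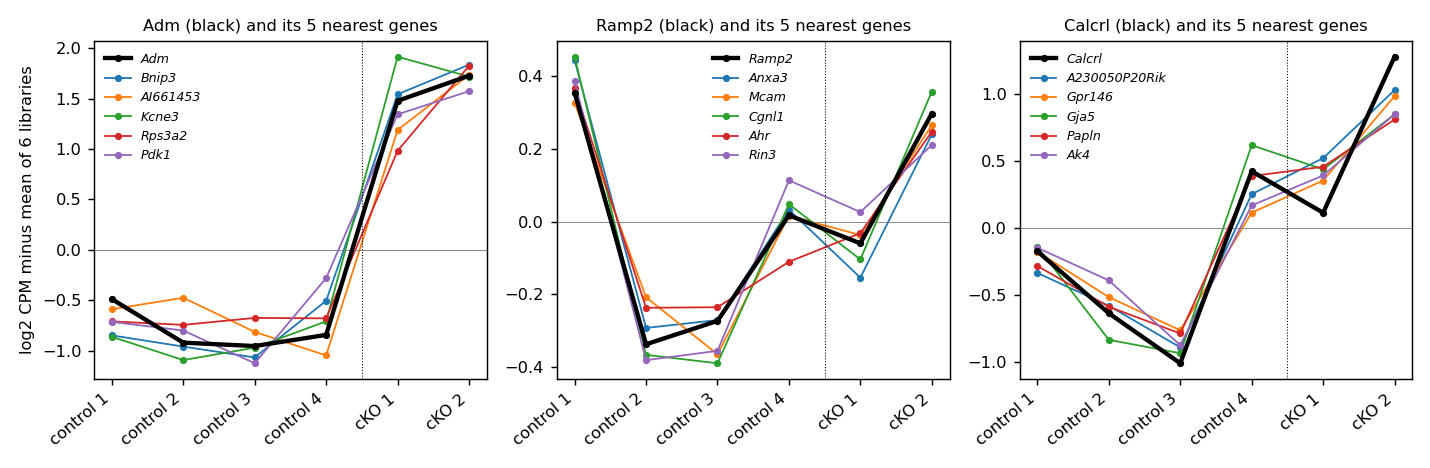
Log2 CPM of Adm, Ramp2 and Calcrl (black) and of the 5 genes nearest to each (colours) in each library, centred on the mean of the 6 libraries, with lines only to guide the eye. The Adm profile steps up between the groups, the Ramp2 profile is high in control 1 and cKO 2, and the Calcrl profile is high in control 4 and cKO 2.

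Ramp3 was nearest to Jade2 at 0.117, Tmc6 at 0.120, Vsir at 0.125, Gm14586 at 0.129 and Ppp1r3c at 0.129, with a median of 0.461. Ackr3 was nearest to Gm27027 at 0.0371, Ank1 at 0.0502, Nsun7 at 0.0685, the postsynaptic scaffold gene Shank3 at 0.0744 and Entpd1 at 0.0764, with a median of 0.307. Like Ackr3, Shank3 reached its highest level in control 3, at 60.6 CPM. Genes nearest to a member share its high libraries because they were picked for a like profile, so this is a description.

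Among the other genes of ligands and peptide processing, Adm2, Calcb and Iapp were not in the table. Calca, which encodes CGRP and calcitonin, was sparsely counted, with 12 to 48 counts per library, and its log2 fold change was -0.35 (95% interval -1.62 to 0.92). Pam, the amidating enzyme gene, was plentiful at 99.0 to 155 CPM in the controls and 116 and 127 CPM in the libraries labelled Foxp1cKO, with a log2 fold change of -0.10 (95% interval -0.49 to 0.29). The peptidase gene Mme had a log2 fold change of -0.42 (95% interval -1.41 to 0.57). Of the 6 genes of this list besides Adm that were in the table, 0 passed the threshold, 1 was higher and 5 were lower, with a median of -0.31. The higher one was Ece1, which encodes an endothelin-converting enzyme, at 33.4 to 41.9 CPM in the controls and 45.6 and 44.6 CPM in the others (log2 fold change 0.24, edgeR quasi-likelihood, unadjusted p = 0.0486 and Benjamini-Hochberg adjusted p = 0.38).

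Among receptor-side genes, Calcr, Cxcl11 and Cxcr3 were not in the table. Of the 4 besides the members that were, 0 passed the threshold and 3 were lower. Crcp, which encodes a small intracellular component of the CGRP receptor, was lower in both libraries labelled Foxp1cKO (35.3 and 35.9 CPM) than in all controls (37.9 to 41.7 CPM), with a log2 fold change of -0.19 (95% interval -0.38 to -0.01, edgeR quasi-likelihood, Benjamini-Hochberg adjusted p = 0.373). Gpr182, which encodes another atypical receptor once proposed for adrenomedullin, had 0.302 to 0.678 CPM in the controls and 0.219 and 0.250 CPM in the others (95% interval of the log2 fold change -1.98 to -0.03, edgeR quasi-likelihood, Benjamini-Hochberg adjusted p = 0.373). Both libraries labelled Foxp1cKO being below all controls was seen in 13.1% of all genes.

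Cxcl12, whose chemokine Ackr3 also takes up, had 58.0, 43.8, 33.7 and 30.5 CPM in controls 1 to 4 and 22.4 and 42.5 CPM in the libraries labelled Foxp1cKO (log2 fold change -0.35, 95% interval -1.13 to 0.43). The sum of 8 meningeal fibroblast genes, of 9 listed, also varied among libraries. It was 567, 173, 93.6 and 370 CPM in controls 1 to 4 and 151 and 343 CPM in the libraries labelled Foxp1cKO 1 and 2. Control 1 was highest in both this sum and Cxcl12. Control 4 had the next-highest sum but the lowest Cxcl12 of the controls. None of these 8 genes passed the threshold or was at 0 in any library, and their part in the level of Cxcl12 was not tested. Cxcr4, its signalling receptor gene, was steady at 17.6 to 19.7 CPM in the controls and 18.3 and 21.6 CPM in the others (log2 fold change 0.09, 95% interval -0.18 to 0.36).

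Downstream of the receptor, all 28 listed genes of the cyclic AMP and arrestin arm were in the table. Of these, 15 were higher, 13 were lower and 0 passed the threshold, against 0.152% of all genes. Their median log2 fold change was 0.04, and an unadjusted p under 0.05 in edgeR was seen for 4 of the 28, against 13.0% of all genes. Both libraries labelled Foxp1cKO lay above all controls for 3 of the 28 and below them for 3, against 11.5% and 13.1% of all genes. Rapgef4, which encodes a cyclic AMP sensor, had 6.98 to 14.1 CPM in the controls and 14.8 and 17.1 CPM in the others (log2 fold change 0.67, edgeR quasi-likelihood, Benjamini-Hochberg adjusted p = 0.364). The receptor kinase gene Grk3 stood at a log2 fold change of 0.27, the cyclase gene Adcy3 at -0.35 and the protein kinase A gene Prkaca at -0.20, each with both libraries labelled Foxp1cKO outside the range of the controls and none past the threshold. Of 9 listed receptors of the same class that can bind RAMPs, 7 were in the table, 2 were higher, 5 were lower and 0 passed, with a median of -0.05.

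Beside 15 genes inducible by hypoxia, Adm had one of the larger changes. Of these, 14 were higher and 4 passed the threshold (Vegfa, Pdk1, Bnip3 and P4ha1), with a median log2 fold change of 1.25, and Bnip3 alone, at 2.53, exceeded the value of Adm. Of all 17068 genes, 8407 were higher and 0.152% passed. These genes were chosen with earlier results of the data known, so their direction is not independent of that of Adm.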

How the data were processed

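RNA of E12.5 lateral cortex was sequenced by the authors as stranded paired-end libraries. They aligned reads to mm10 with STAR, used HTSeq 0.9.1 (union) for counting, and dropped weakly counted genes. Deposited counts are whole and not normalized. The authors also deposited variance-stabilized values on a log2-like scale, used here for 1 alternative only. Groups and replicate numbers came from the labels. The model of the authors also held the litter, which is not in the labels and was not used.

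Counts were analysed in R 4.3.3 with edgeR 4.0.16 (TMM, quasi-likelihood test, group alone, all 17068 genes, Benjamini-Hochberg adjustment). Standard errors were taken from the fold change and the F statistic. limma 3.58.1 and DESeq2 1.42.0 were alternatives. Positions, lengths and symbols came from GENCODE M21 on GRCm38, the assembly also called mm10, which matched 17047 identifiers, and promoter windows came from RefSeq (GRCm38.p6). Log2 CPM used a prior count of 2. Depth was 50076008 to 78346979 counts per library, at which 3 counts are 0.0381 to 0.0596 CPM. Floors and counting errors cover counting error only. Pairs of libraries of 1 group differed by a chi-square of 25.9 to 193 per gene, far above sampling noise, so none was a duplicate.

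The members and lists were chosen with earlier results of these data known. Named genes were the members, related ligand, processing and receptor genes, list genes that passed the threshold or had an unadjusted p under 0.05 without overlap of the groups, and the 5 genes nearest to each member. Cell type markers were named where a result turned on them. The main edgeR fit, DESeq2 and limma were run on simulated data, limma not on the deposited variance-stabilized values. The blocked, left-out and other alternative fits were not. In situ hybridization, immunostaining and qPCR were not analysed here.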

Additional observations from a re-analysis of the deposited data

Results flagged for a closer look

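Ackr3 in control 3 stood apart from the other controls, at 47.8 CPM against 29.3 to 32.2 CPM, and the gap was 0.845 of the whole range of the 4 controls. Crcp in control 1 stood apart on the low side, at 37.9 CPM against 41.3 to 41.7 CPM, with a gap of 0.907 of the range. Among 11 genes examined in the controls, 2 were flagged in this way, and chance flags about 1 in 20 groups.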

How the results depend on the processing

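Adm was higher in the libraries labelled Foxp1cKO under all 15 alternatives and past the threshold in 11. It no longer passed with the replicate block (2.33 on the log2 scale) or without control 2, the library labelled Foxp1cKO 1 or that labelled Foxp1cKO 2, and over the 6 fits that left out 1 library it ran from 2.28 to 2.55. With a Foxp1cKO library left out, the lone library of that group is assumed to vary like the controls. With limma on the deposited variance-stabilized values Adm passed at 1.26, and Calcrl was at 0.70 and Ramp3 at 0.25. The values of Calcrl ran from 0.35 to 1.53 over those 6 fits, of Ramp2 from -0.043 to 0.33, of Ramp3 from 0.24 to 1.08 and of Ackr3 from 0.064 to 0.34. Ramp2 reversed without the library labelled Foxp1cKO 2 (-0.043), and the cause was not tested. Replicate numbers 1 and 2 occur in both groups, but deviations of same-numbered libraries correlated at -0.118 over genes, so the numbers were not taken as pairs. With the block 0 genes passed, against 3027 at an unadjusted p under 0.05. With the numbers crossed, a pairing added after the data were seen, 1301 genes passed and Calcrl passed at 1.11. In both blocked fits controls 3 and 4 each had a block of their own. The difference between the groups thus rested on the libraries numbered 1 and 2 alone, and nothing is read from calls gained or lost there. DESeq2's Wald test called 507 genes, 310 higher and 197 lower, against 26 with edgeR, and leaving out 1 library gave 2 to 96 genes. The fit without control 4 gave 96, those without controls 1 and 2 gave 6 and 2, and those without the libraries labelled Foxp1cKO 1 and 2 gave 9 and 3. With the longest transcript the control level per kilobase was 0.788 for Adm and 4.63 for Ramp2, and 3.11 for Ramp2 over exon bases not shared with Vps25, the latter chosen after the data were seen. The log2 ratio of group means of Ramp2 per endothelial marker was -0.18 with the sum, -0.086 with the geometric mean and -0.049 with the sum without Flt1. Low counts limit the precision of Ramp3, Calca and Gpr182, and the part of litter was not tested.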
